A study of Mus musculus with 22 samples.

Results

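The interferon response genes described here are a list of 38 genes that interferons are known to switch on. They were found in the array table by their gene symbol, which gave a feature to 37 of them among 19337 named genes. Ifi44 matched no feature and was not analysed here. The expression of these genes was followed in white fat of male C57BL/6J mice that had received bone marrow and then ate a high-fat diet, in 22 whole-transcript arrays that form 6 groups of depot and marrow.

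The arrays came from epididymal fat (epiWAT), the visceral depot next to the testis, and from inguinal subcutaneous fat (ingWAT). WT marrow was given to WT recipients and measured in 4 epiWAT and 4 ingWAT arrays. Gipr-/- marrow, without the receptor of the gut hormone GIP, was given to WT recipients and measured in 4 epiWAT and 3 ingWAT arrays. Gipr-/-S100a9-/- marrow, called double-knockout marrow here, also lacks the calcium-binding alarmin subunit S100a9 and was measured in 4 epiWAT and 3 ingWAT arrays. The genotype of the mice that received double-knockout marrow is not stated in the labels. All mice had 6 weeks for the marrow to reconstitute and then 14 weeks of a diet with 60% of its calories from fat. In such chimeras the blood-forming cells are of the donor's genotype, while adipocytes and most other resident cells of the fat remain those of the recipient. Nothing in the labels ties every array to a mouse of its own, so each p-value measures the spread between samples, which may in part be technical. Arrays are numbered within a group only to name them. The sample titles carry running numbers of their own, whose meaning is not stated. In ingWAT, WT array 4 and Gipr-/- arrays 1 and 2 have higher title numbers than all other arrays of that depot. Whether this order bears on the values was not tested.

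Interferons are secreted proteins that warn cells of a virus. Type I interferons bind the receptor made of Ifnar1 and Ifnar2, and the kinases at that receptor switch on a complex with Stat2 and Irf9 that binds the interferon-stimulated response element, ISRE, in front of antiviral genes. Irf7, itself induced by interferon, carries the response further, and the products of the target genes sense foreign RNA, block its translation, degrade it or modify proteins with the ubiquitin-like Isg15. In fat, macrophages, other immune cells, endothelium and adipocytes can all run this programme. Because whole fat was measured, fewer cells of a type and less RNA per cell cannot be told apart in any of the differences below.

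The promoters of the members were searched for known interferon response sites. RefSeq promoters on GRCm38.p6, from 250 bases before to 50 bases after the start of transcription, were at hand for 27 of the 37 members, as 30 promoters. The core of the ISRE, searched on both strands as GAAA, 2 bases of any kind and GAAA, was present for 14 of these 27 members (51.9%), against 1079 of all 27025 genes with a promoter (3.99%). The first bases of its 22 matches, overlapping ones counted apart, had a median position of -76.5 relative to the start. The interferon-gamma activated site, searched as TTCNNNGAA, which reads the same on both strands, was present for 6 of the 27 members (22.2%), against 9.55% of all genes. A match describes letters only, and a promoter without one may still respond. The 5 promoters printed next belong to the 3 genes that passed the test between kinds of marrow and to the near copies Ifit3 and Ifit3b, the IFIT genes with the lowest differences in epiWAT. Each is written 5′ to 3′ on the strand of its gene, with ISRE core matches in capitals: Rsad2 at chr12:26456403-26456702 on the minus strand, Gbp2 at chr3:142620413-142620712 on the plus strand, Lgals3bp at chr11:118401910-118402209 on the minus strand, Ifit3 at chr19:34583279-34583578 and Ifit3b at chr19:34607707-34608006, both on the plus strand.
Rsad2: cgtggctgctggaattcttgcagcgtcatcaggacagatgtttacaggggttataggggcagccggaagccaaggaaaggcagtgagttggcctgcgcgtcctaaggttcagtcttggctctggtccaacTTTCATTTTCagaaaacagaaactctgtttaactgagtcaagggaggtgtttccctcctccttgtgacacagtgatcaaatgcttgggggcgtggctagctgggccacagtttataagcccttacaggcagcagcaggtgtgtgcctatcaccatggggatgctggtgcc
Gbp2: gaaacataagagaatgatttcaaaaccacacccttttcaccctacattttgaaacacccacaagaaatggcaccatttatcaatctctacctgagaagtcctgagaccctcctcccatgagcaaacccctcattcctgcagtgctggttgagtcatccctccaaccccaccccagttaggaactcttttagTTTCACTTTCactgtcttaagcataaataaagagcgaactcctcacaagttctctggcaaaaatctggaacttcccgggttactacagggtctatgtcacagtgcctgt
Lgals3bp: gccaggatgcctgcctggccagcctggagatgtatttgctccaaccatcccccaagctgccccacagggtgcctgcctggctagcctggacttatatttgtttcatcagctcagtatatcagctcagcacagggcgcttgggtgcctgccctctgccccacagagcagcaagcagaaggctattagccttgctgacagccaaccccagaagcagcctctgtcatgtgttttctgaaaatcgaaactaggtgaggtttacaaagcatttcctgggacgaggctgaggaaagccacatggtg
Ifit3: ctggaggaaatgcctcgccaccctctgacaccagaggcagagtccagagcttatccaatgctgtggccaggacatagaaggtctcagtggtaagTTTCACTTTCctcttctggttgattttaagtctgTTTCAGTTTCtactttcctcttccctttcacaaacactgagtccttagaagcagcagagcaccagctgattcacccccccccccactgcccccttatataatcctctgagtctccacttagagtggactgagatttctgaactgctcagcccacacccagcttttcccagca
Ifit3b: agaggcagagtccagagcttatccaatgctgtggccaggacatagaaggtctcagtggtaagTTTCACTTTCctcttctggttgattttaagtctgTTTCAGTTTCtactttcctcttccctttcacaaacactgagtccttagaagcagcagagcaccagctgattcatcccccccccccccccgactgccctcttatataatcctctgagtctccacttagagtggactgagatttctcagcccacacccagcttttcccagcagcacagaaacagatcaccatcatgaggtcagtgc
The match of Rsad2 began 120 bases before the start and that of Gbp2 59 bases before it, both on the reverse strand. The Lgals3bp promoter had no match in this window. Ifit3 had 2 matches, the farther 156 and the nearer 122 bases before the start, and Ifit3b had the same 2 matches 32 bases farther out. Shifted by these 32 bases and compared without gaps, the Ifit3 and Ifit3b promoters were identical at 201 of 268 bases (75%). A run of C differs in length between them, so the bases behind it were compared out of step. This share therefore understates their likeness, and a comparison with gaps was not made. Ifit3 and Ifit3b are near copies, so the array may not separate their transcripts fully, and their values are not independent of each other.

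Values are on a log scale taken as log2, so that a difference of 1 is a doubling under that reading. Array medians lay between 6.11 and 6.54; arrays carry no read depth, and their number limits the precision. Within each depot 14502 genes were tested with limma after the 25% of genes with the lowest mean had been left out, and 35 members passed that filter in each depot. Oasl1 and Oas3 did not, with depot means of 3.08 and 3.65 in epiWAT and 2.87 and 3.65 in ingWAT against limits of 4.33 and 4.42. Isg15 lay just above the limits at 4.71 in epiWAT and 4.75 in ingWAT. The mean log2 value of 8 adipocyte markers was between 15.75 and 17.84 on every array. It ran from 15.75 to 17.70 in the epiWAT double-knockout group and was at least 17.00 on the arrays of every other group. The mean of 6 mesothelium markers was 5.88 to 8.01 in epiWAT and 4.03 to 4.52 in ingWAT. Gipr ran from 4.02 to 6.10 in epiWAT and 4.36 to 5.76 in ingWAT, and S100a9 from 4.56 to 5.89 and 4.94 to 6.98. Neither differed past the threshold between kinds of marrow; their probes were not placed against the deleted parts, so they check no label.

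Several arrays stood apart by markers of neighbouring tissue. In epiWAT, Gipr-/- array 1 had a mean of 13.04 over 7 testis germ cell markers and double-knockout array 1 a mean of 13.19 over 7 of 8 epididymis epithelium markers, and WT array 2 came second in both lists with 8.95 and 9.91. In ingWAT, double-knockout arrays 1 and 3 had T cell means of 11.05 and 10.98 over 7 of 9 markers and lymph node stroma means of 11.55 and 11.37 over 4 of 5 markers, while the other ingWAT arrays stayed between 5.53 and 6.49 for the T cell list. Skeletal muscle markers reached 18.42 on ingWAT WT array 3, against 6.15 on WT array 4. Double-knockout array 2 of ingWAT reached 15.60 and WT array 2 reached 16.68.

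**Figure D1:**
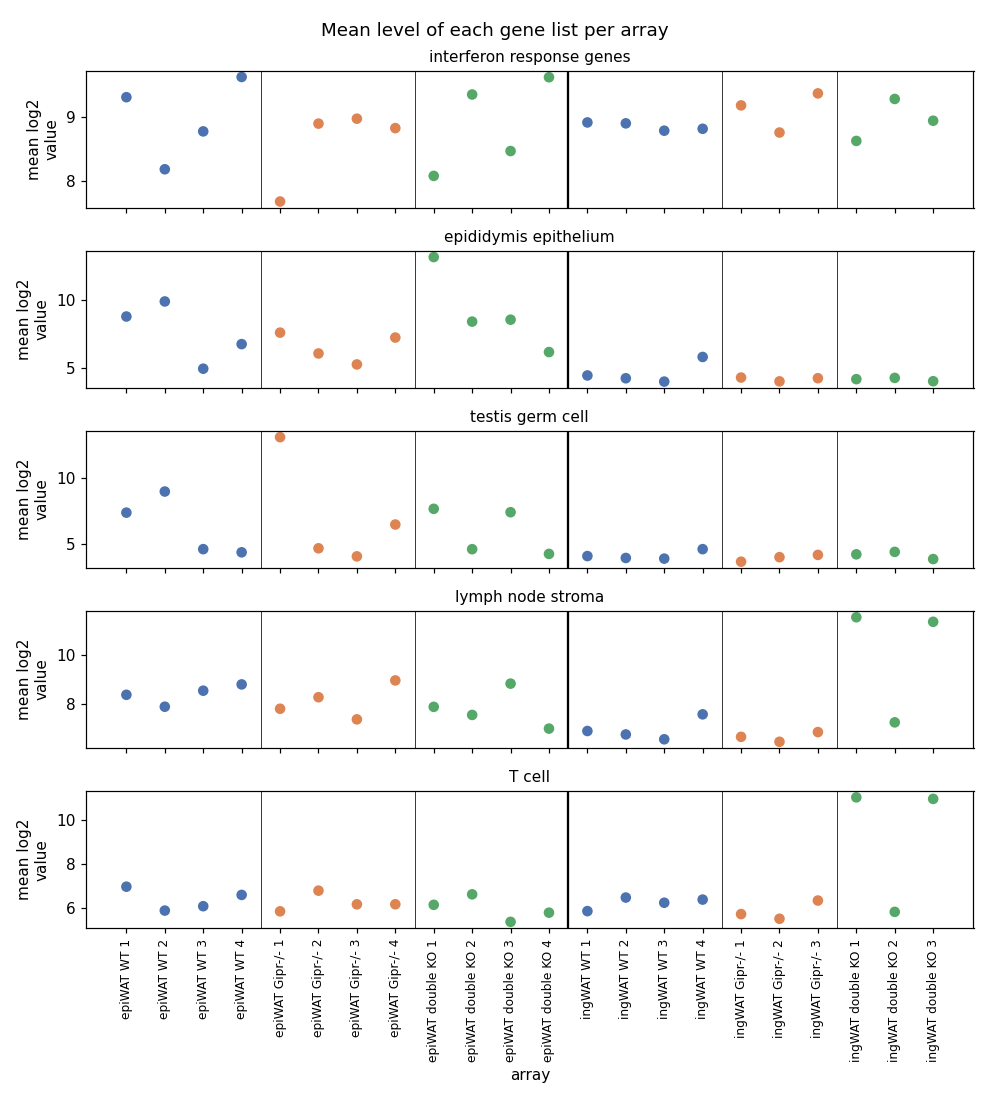
Mean log2 value of the 37 interferon response genes and of 4 marker lists (vertical axes, each with its own range) on each of the 22 arrays (horizontal axis), with WT, Gipr-/- and double-knockout marrow in blue, orange and green and the depots divided by a thick line. In epiWAT the 3 lowest points of the interferon panel are Gipr-/- array 1 (7.67), double-knockout array 1 (8.07) and WT array 2 (8.18), which are also high in the epididymis or germ cell panels.

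In epiWAT the members varied together from array to array within each kind of marrow. Gipr-/- array 1 was the lowest of its group for 36 of the 37 members and the lowest of all 12 epiWAT arrays for 26. WT array 2 and double-knockout array 1 were each the lowest of their group for 30 members. At the other end, WT array 4 was the highest of its group for 23 members and double-knockout array 4 for 25. The 3 low arrays are the 3 that carried the highest epididymis or germ cell markers, and the part of those tissues in the low values was not tested.

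The mean over the 37 members was 8.97 ± 0.63 (SD, n = 4) for WT marrow, 8.59 ± 0.61 (SD, n = 4) for Gipr-/- marrow and 8.88 ± 0.73 (SD, n = 4) for double-knockout marrow in epiWAT. In ingWAT it was 8.85 ± 0.06 (SD, n = 4), 9.10 ± 0.31 (SD, n = 3) and 8.95 ± 0.33 (SD, n = 3). The groups of each depot overlapped in this mean, and the 4 ingWAT WT arrays lay closest together, between 8.78 and 8.91. A member's range over the arrays was wider in epiWAT than in ingWAT for 31 of 37 members, with a median range of 2.35 over 12 arrays and of 1.46 over 10. Within groups the median SD was taken over the 35 members that passed the low-value filter. In epiWAT it was 0.71, 0.72 and 0.91 for WT, Gipr-/- and double-knockout marrow, against 0.38, 0.41 and 0.45 for all genes tested. In ingWAT it was 0.35, 0.40 and 0.51, against 0.39, 0.33 and 0.40.

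**Figure D2:**
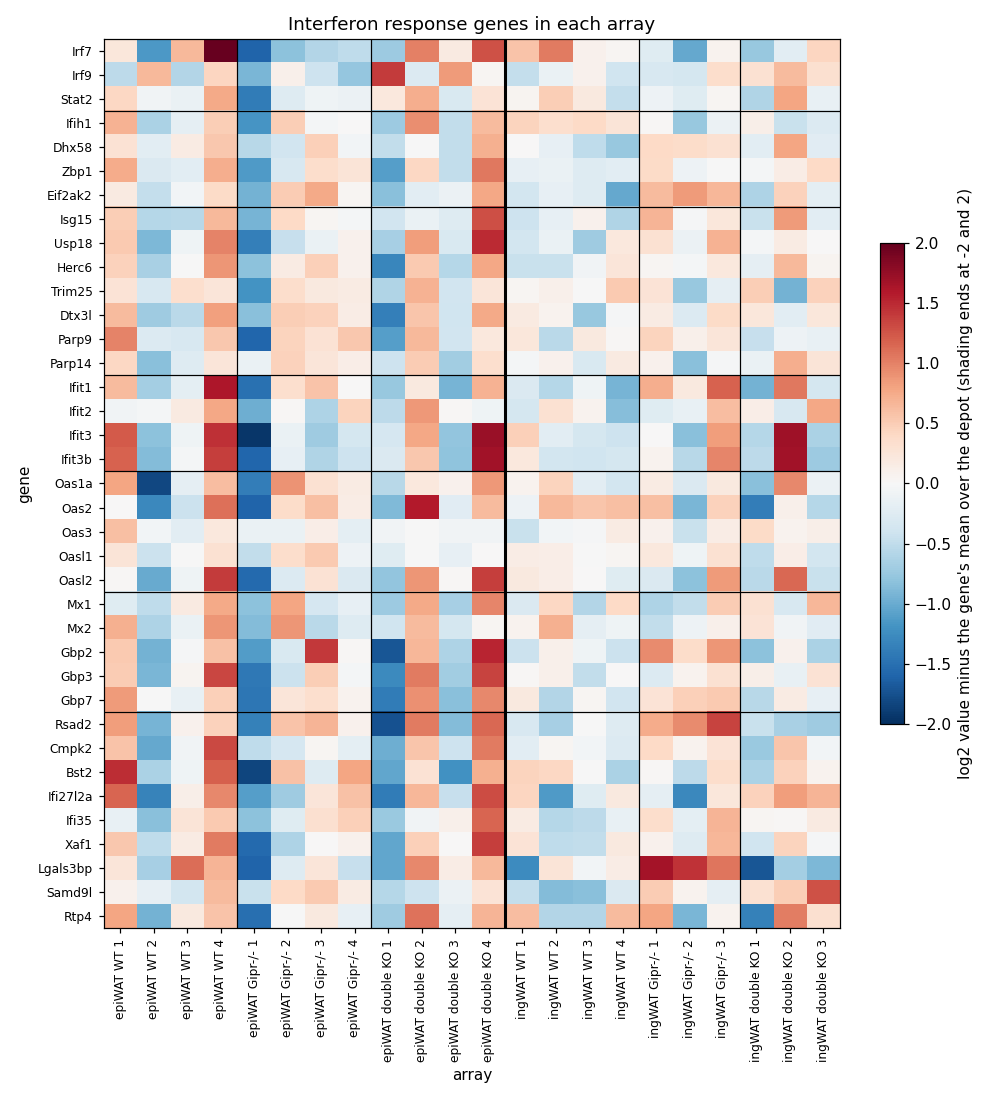
Log2 value of each of the 37 members (rows, grouped by role) on each array (columns), minus the gene's mean over the arrays of that depot; red is above and blue below that mean, and shading ends at -2 and 2. The blue columns in epiWAT are Gipr-/- array 1, WT array 2 and double-knockout array 1; in ingWAT the Lgals3bp and Rsad2 rows are red on the 3 Gipr-/- arrays.

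The first comparison asked whether marrow without Gipr altered the programme in epiWAT. No member passed the adjusted threshold of 0.05 in limma, and 0 of 14502 genes did (0%). At an unadjusted p under 0.05 stood 0 members, against 1052 genes (7.25%), and the groups were free of overlap for 0 members, against 5.04% of genes. Of the 37 members 30 lay lower with Gipr-/- than with WT marrow, against 51.8% of genes tested, and their median log2 difference was -0.41, against -0.02 for all genes tested. That median was -0.12 without Gipr-/- array 1, also when double-knockout array 1 was left out with it, and -0.19 without WT array 4.

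Among the transcription factors, Irf7 had log2 values of 8.67, 7.31, 9.11 and 10.50 with WT and of 6.84, 7.64, 7.87 and 7.95 with Gipr-/- marrow in epiWAT. The Gipr-/- arrays were low and even, and overlapped with WT through WT array 2. The difference was -1.32 (SE 0.61), with an adjusted p of 0.690 in limma. Stat2, a subunit of the ISRE-binding complex, read 10.52, 10.04, 9.97 and 10.87 with WT and 8.70, 9.85, 10.03 and 10.001 with Gipr-/- marrow, so that the groups overlapped and array 1 alone was far lower. Its difference was -0.70 (SE 0.34, adjusted p = 0.705 in limma). All 3 factors, all 4 IFIT genes and all 5 GTPases lay below WT, and 3 of the 5 OAS genes lay above it.

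The IFIT proteins bind foreign RNA and hold up its translation. Ifit3 read 13.57, 11.52, 12.25 and 13.79 with WT and 10.39, 12.20, 11.62 and 11.98 with Gipr-/- marrow in epiWAT, a difference of -1.23 (SE 0.64, adjusted p = 0.719 in limma). Its copy Ifit3b had a difference of -1.10 (SE 0.60). WT arrays 1 and 4 were high in both genes, WT array 3 lay little above the highest Gipr-/- array, and WT array 2 lay among the Gipr-/- arrays. Usp18, which removes Isg15 from proteins and restrains the receptor, had the lowest difference of the 7 ubiquitin-related members, -0.60.

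Double-knockout against Gipr-/- marrow in epiWAT compared Gipr-/- marrow without and with S100a9. Because the genotype of the mice that received double-knockout marrow is not stated, the recipients may differ as well. This comparison shares its Gipr-/- arrays with the one before, so opposite signs in both carry no independent weight. Again 0 members and 0 genes (0%) passed the adjusted threshold in limma. Only 1 member, Irf9, stood at an unadjusted p under 0.05, against 1555 genes (10.7%; 5.28% higher), and 0 members were free of overlap, against 6.05% of genes. Of the 37 members 26 lay higher with double-knockout marrow, against 49.7% of genes, with a median difference of 0.19, against 0.00 for all genes tested. The median was -0.07 without Gipr-/- array 1 or without double-knockout array 4, and 0.52 without double-knockout array 1.

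Irf9, which gives the ISRE-binding complex its grip on DNA, read 7.12, 8.14, 7.63 and 7.27 on the Gipr-/- arrays and 9.43, 7.77, 8.89 and 8.07 with double-knockout marrow. Double-knockout array 1, the array with high epididymis markers, was its highest value although that array was the lowest of its group for most members. The difference was 1.001 (SE 0.42, adjusted p = 0.413 in limma). Irf7 read 7.72, 9.47, 8.63 and 9.72 with double-knockout marrow, a difference of 1.31 (SE 0.61, adjusted p = 0.474). Stat2 read 10.32, 10.83, 9.80 and 10.38, a difference of 0.69 (SE 0.34, adjusted p = 0.494), and both genes overlapped with the Gipr-/- arrays. Ifit3 differed by 1.13 (SE 0.64).

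Against WT marrow, double-knockout marrow left the epiWAT members where the spread could not separate them. In limma 0 members and 0 genes (0%) passed the adjusted threshold, 0 members stood at an unadjusted p under 0.05 against 444 genes (3.06%), and 0 were free of overlap against 2.32% of genes. Of 37 members 27 lay lower, against 52.9% of genes, with a median of -0.14, against -0.02 for all genes tested; it was 0.12 without WT array 4, 0.20 without double-knockout array 1 and 0.01 without double-knockout array 3. The differences farthest from 0 were -0.80 (SE 0.67) for Bst2, the tetherin that holds budding virions at the cell surface, -0.54 (SE 0.58) for Ifit1 and 0.51 (SE 0.42) for Irf9. Irf7 differed by -0.01 (SE 0.61), and its sign turned when any of 4 single arrays was left out.

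**Figure D3:**
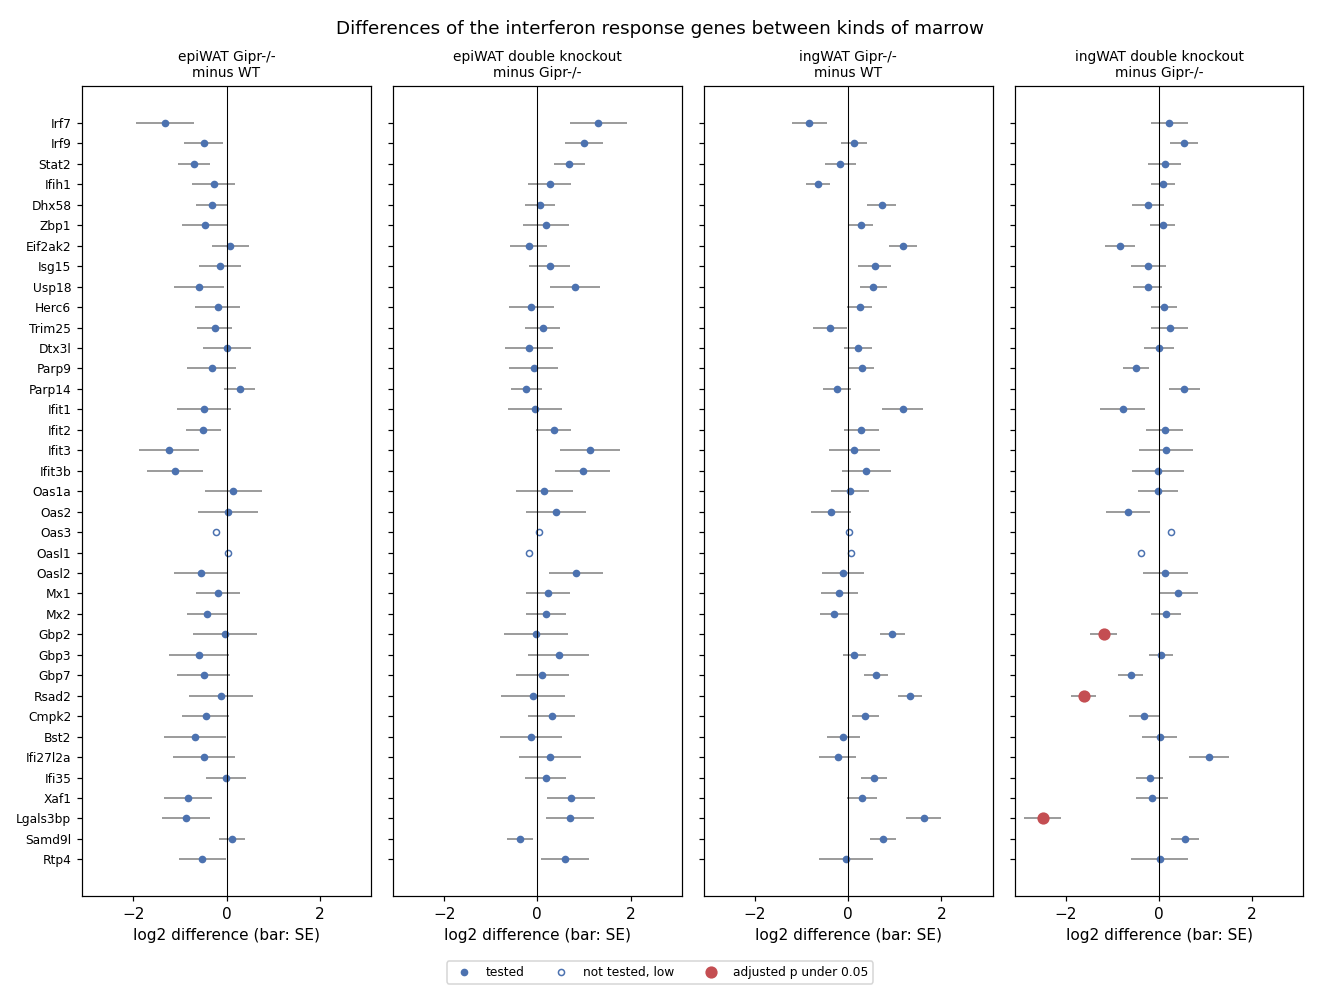
Log2 difference of each member (points, with SE as bars) in 4 comparisons between kinds of marrow; open points are the members that were not tested because they were low, and large red points mark an adjusted p under 0.05 in limma. Lgals3bp, Rsad2 and Gbp2 in the last panel are the only red points, and the bars are longer in the epiWAT panels.

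In ingWAT, Gipr-/- marrow went with higher values of a part of the members, though none passed the adjusted threshold. In limma 0 members passed, against 34 of 14502 genes (0.234%). At an unadjusted p under 0.05 stood 8 members that were higher and 2 that were lower with Gipr-/- marrow, against 15% of genes, 9.94% higher and 5.1% lower. The groups were free of overlap for 10 members that were higher and 1 that was lower, against 15.4% of genes, 10.2% higher and 5.15% lower. Of 37 members 25 lay higher, against 52.8% of genes; their median difference was 0.22, against 0.03 for all genes tested, and it was 0.38 without Gipr-/- array 2 and 0.00 without Gipr-/- array 3.

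Rsad2 encodes viperin, an enzyme that makes a chain-terminating nucleotide against viral polymerases. It read 8.55, 8.20, 8.85 and 8.60 with WT and 9.61, 9.80 and 10.22 with Gipr-/- marrow in ingWAT, so the groups were apart. The difference was 1.32 (SE 0.25, adjusted p = 0.0534 in limma). Lgals3bp encodes a secreted glycoprotein that binds galectins and is induced by interferon. It read 11.98, 13.49, 13.18 and 13.39 with WT and 14.90, 14.69 and 14.30 with Gipr-/- marrow, with no overlap, and differed by 1.62 (SE 0.37, adjusted p = 0.0754).

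Eif2ak2 encodes PKR, the kinase that stops translation when it binds double-stranded RNA. It read 9.57, 9.78, 9.69 and 8.91 with WT and 10.58, 10.80 and 10.60 with Gipr-/- marrow in ingWAT. The 3 Gipr-/- arrays lay close together above every WT array, and the difference was 1.17 (SE 0.30, adjusted p = 0.0989 in limma). Rsad2, Lgals3bp and Eif2ak2 passed the adjusted threshold when double-knockout array 2 was left out of the shared fit, at 0.0309, 0.0460 and 0.0450. Gbp2, a guanylate-binding GTPase that attacks vacuoles of pathogens, differed by 0.94 (SE 0.27, adjusted p = 0.133).

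The other members at an unadjusted p under 0.05 were spread over the roles. Ifit1 was 1.17 higher (SE 0.45), Samd9l, a brake on translation in infected cells, 0.75 higher (SE 0.28), and Gbp7 0.60 higher (SE 0.25) with Gipr-/- marrow. The RNA sensors went both ways: Dhx58, which encodes LGP2, was 0.72 higher (SE 0.32), and Ifih1, which encodes MDA5, had a difference of -0.65 (SE 0.25). Irf7 had a difference of -0.84 (SE 0.38, adjusted p = 0.319 in limma), with values of 9.35, 9.83, 8.87 and 8.82 with WT and 8.53, 7.76 and 8.85 with Gipr-/- marrow. The Irf7 groups overlapped, with Gipr-/- array 3 among the WT arrays. Of the 3 factors 1 lay above WT, and of the 4 IFIT genes 4 did. The log2 of the summed values of 9 of 10 macrophage markers, none at 0, ran from 14.37 to 14.84 with WT and from 14.87 to 15.40 with Gipr-/- marrow. The mean over the same markers overlapped, from 10.22 to 10.97 and from 10.49 to 11.23, and 6 of the 9 lay higher and 3 lower with Gipr-/- marrow, 0 of them past the threshold in limma. The part of macrophages in the result was not tested. Without WT arrays 2 and 3 and double-knockout array 2, which had the highest muscle markers, 0 members and 28 genes passed and the members' median was 0.14; without double-knockout arrays 1 and 3, 0 members and 86 genes passed.

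Double-knockout against Gipr-/- marrow in ingWAT held the only member calls between kinds of marrow: Lgals3bp, Rsad2 and Gbp2 fell. They were 3 of 35 members tested, against 505 of 14502 genes (3.48%), of which 384 were lower (2.65%). At an unadjusted p under 0.05 stood 5 members that were lower and 1 that was higher with double-knockout marrow, against 18.9% of genes, 11.9% lower and 7.07% higher. The groups were free of overlap for 6 members that were lower and 1 that was higher, against 22.3% of genes, 13.9% lower and 8.35% higher. The median over 37 members was 0.01, against -0.03 for all genes tested; single arrays moved it from -0.30, without double-knockout array 2, to 0.14, without Gipr-/- array 3.

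With double-knockout marrow Lgals3bp read 11.52, 12.55 and 12.33, all below the lowest Gipr-/- value of 14.30. It fell by 2.49 on the log2 scale (SE 0.40, adjusted p = 0.00919 in limma). Rsad2 read 8.41, 8.22 and 8.15 and fell by 1.61 (SE 0.27, adjusted p = 0.0111). Gbp2 read 10.61, 11.51 and 10.80, against 12.37, 11.80 and 12.32 with Gipr-/- marrow, and fell by 1.19 (SE 0.29, adjusted p = 0.0466). The double-knockout values of all 3 genes overlapped with those of WT marrow.

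**Figure D4:**
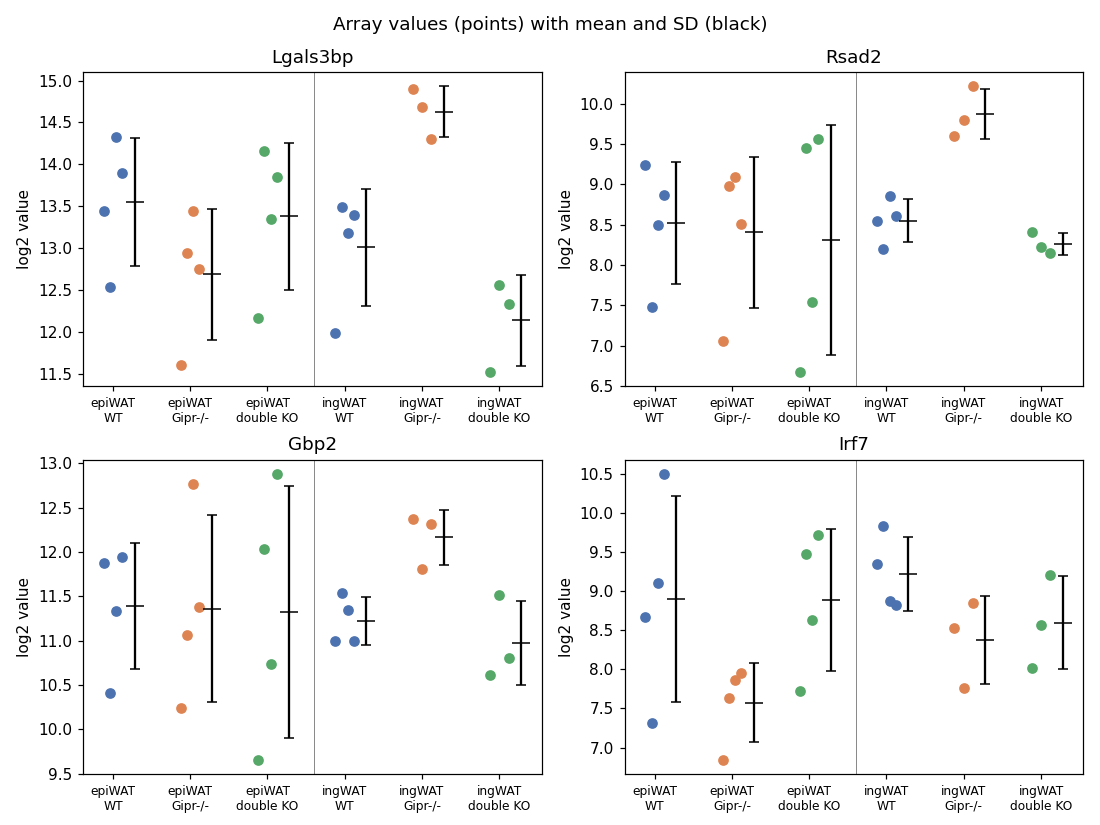
Log2 values of Lgals3bp, Rsad2, Gbp2 and Irf7 (vertical axes) in each array (coloured points) of the 6 groups (horizontal axis), with the mean and SD of each group in black. In ingWAT the 3 Gipr-/- points of Lgals3bp (14.30 to 14.90) and Rsad2 (9.61 to 10.22) lie above all other ingWAT points, while in epiWAT the groups overlap in all 4 genes.

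The calls depended on single arrays and in part on the fit. Gbp2 was lost with no filter on low values (adjusted p = 0.0572), quantile normalization (0.0821) or no trend (0.0668), and in the fit of all 22 arrays both Gbp2 (0.366) and Rsad2 (0.168) were lost. Lgals3bp had an adjusted p of 0.0590 without Gipr-/- array 2 and of 0.0513 without double-knockout array 1, and Rsad2 one of 0.0590 without Gipr-/- array 2. Gbp2 lost its call without any one of the 10 ingWAT arrays other than double-knockout array 2. Double-knockout arrays 1 and 3 carried T cell, B cell and lymph node stroma markers. Array 2 was far lower in lymph node stroma markers, with a mean of 7.25, against 6.56 to 7.58 with WT and 6.45 to 6.85 with Gipr-/- marrow. The log2 of their summed values was 11.12 on it, above the 9.50 to 11.07 with WT and the 9.10 to 9.95 with Gipr-/- marrow. On array 2, which also had high muscle markers, Lgals3bp read 12.55, Rsad2 8.22 and Gbp2 11.51, each below every Gipr-/- array. The part of lymph node tissue in these values was not tested. With arrays 1 and 3 left out, 1 double-knockout array remained, 0 members and 0 genes passed, and the differences were -2.07, -1.65 and -0.65, with adjusted p of 0.156, 0.144 and 0.462; the lone array is then assumed to vary like the other groups.

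Macrophage markers were compared between these groups as well. The log2 of the summed values of 9 of 10 macrophage markers ran from 14.87 to 15.40 with Gipr-/- and from 13.39 to 14.59 with double-knockout marrow, and no marker was at 0. Their mean overlapped, from 10.49 to 11.23 and from 9.24 to 10.56; all 9 lay lower with double-knockout marrow, 2 of them past the threshold. The log2 of the summed values of the T cell list, 7 of 9 markers, ran from 9.14 to 10.39 with Gipr-/- and from 9.33 to 14.11 with double-knockout marrow. For lymph node stroma, 4 of 5 markers, the log2 of the sum ran from 9.10 to 9.95 and from 11.12 to 16.44. The part of these cells in the 3 falls was not tested.

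The other members in that comparison at an unadjusted p under 0.05 were Eif2ak2, with a difference of -0.83 (SE 0.32, adjusted p = 0.176 in limma), Gbp7, with -0.61 (SE 0.27), and Ifi27l2a, with 1.07 (SE 0.43). Eif2ak2 read 9.33, 10.40 and 9.75 with double-knockout marrow, below every Gipr-/- array, and passed at 0.0408 without double-knockout array 2. Ifi27l2a encodes a small interferon-induced membrane protein. It had group means of 14.13 ± 0.78 (SD, n = 3) with Gipr-/- and 15.20 ± 0.19 (SD, n = 3) with double-knockout marrow. Irf7 differed by 0.22 (SE 0.40), and its sign turned without Gipr-/- array 2 or double-knockout array 3. When the 3 arrays with the highest muscle markers were left out, namely WT arrays 2 and 3 and double-knockout array 2, 5 members and 1587 genes passed.

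Double-knockout against WT marrow in ingWAT gave 0 member calls and 0 gene calls (0%) in limma. At an unadjusted p under 0.05 stood 2 members that were higher and 3 that were lower, against 1958 genes (13.5%; 7.07% higher, 6.43% lower), and the groups were free of overlap for 4 members that were higher and 1 that was lower, against 11% of genes, 5.08% higher and 5.91% lower. Samd9l was 1.30 higher (SE 0.28, adjusted p = 0.0973), at 12.31, 12.50 and 13.28 against 11.53, 11.14, 11.16 and 11.72. Irf9 was 0.65 higher (SE 0.28). Samd9l passed at 0.0279 when double-knockout array 2 was left out. Oas2, which makes the messenger that activates RNase L, differed by -1.04 (SE 0.44), Lgals3bp by -0.88 (SE 0.37) and Ifih1 by -0.56 (SE 0.25). Irf7 differed by -0.62 (SE 0.38). The median over 37 members was 0.18, against -0.01 for all genes tested, and -0.11 without double-knockout array 2. Without double-knockout arrays 1 and 3 it was 0.41, with 0 members and 0 genes past the threshold. Without the 3 arrays with the highest muscle markers it was -0.046, with 0 members but 467 genes past it.

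Between depots, ingWAT and epiWAT were compared within each kind of marrow in a fit of all 22 arrays. With WT marrow 0 members passed, against 286 genes (1.97%), 3 members were lower in ingWAT at an unadjusted p under 0.05, against 16.6% of genes (9.82% lower), and 2 were free of overlap, both lower, against 11.7% (7.27% lower). These were Samd9l, with a difference of -0.85 (SE 0.28), Eif2ak2, with -0.78 (SE 0.36), and Dhx58, with -0.73 (SE 0.31), of which Dhx58 overlapped. The values farthest from 0 otherwise were -1.08 (SE 0.54) for Ifit1 and 0.93 (SE 0.58) for Ifi27l2a. The median over members was -0.09, against -0.07 for all genes, and turned to 0.05 with quantile normalization.

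With Gipr-/- marrow 30 of 37 members lay higher in ingWAT, against 51.4% of genes, with a median of 0.47, against 0.02 for all genes tested. In limma 0 members passed, against 89 genes (0.614%). Higher in ingWAT at an unadjusted p under 0.05 were 5 members and lower none, against 15.1% of genes (8.21% higher), and 7 were free of overlap, all higher, against 16.8% (9.23% higher). The 5 were Lgals3bp, higher by 1.94 (SE 0.51, adjusted p = 0.0837), Rsad2, by 1.47 (SE 0.59), Xaf1, an antagonist of an apoptosis inhibitor, by 1.20 (SE 0.49), Usp18, by 1.07 (SE 0.48), and Cmpk2, a nucleotide kinase encoded beside Rsad2, by 1.06 (SE 0.46). Lgals3bp passed at 0.0356 when epiWAT double-knockout array 1 was left out. The median was 0.12 without epiWAT Gipr-/- array 1, the array with germ cell markers. Centring each array on its median raised the median of all genes from 0.02 to 0.16 in this contrast.

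With double-knockout marrow 0 members passed, against 568 genes (3.92%), 2 members were higher and 1 was lower in ingWAT at an unadjusted p under 0.05, against 21.2% of genes (9.3% higher, 11.9% lower). Free of overlap were 2 of 37 members, both higher, of which 1 was tested, against 15.5% of genes (6.57% higher). Ifi27l2a was 1.97 higher in ingWAT (SE 0.63, adjusted p = 0.0807 in limma) and Samd9l 0.71 higher (SE 0.30). Ifi27l2a passed without epiWAT WT array 2 (0.0485) or epiWAT double-knockout array 4 (2.40, 0.0333). Lgals3bp differed by -1.25 (SE 0.51), in the direction opposite to that with Gipr-/- marrow, and by -1.65 without the germ cell and epididymis arrays (adjusted p = 0.0417). Irf7 differed between depots by 0.32 (SE 0.53), 0.80 (SE 0.57) and -0.29 (SE 0.57) with WT, Gipr-/- and double-knockout marrow, and was called in none.

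Whether a marrow effect differed between depots was tested directly. For Gipr-/- minus WT, 0 members and 0 genes (0%) passed in limma, and 3 members stood at an unadjusted p under 0.05, all higher, against 1153 genes (7.95%; 5.16% higher). These were Lgals3bp, with a difference of effects of 2.48 (SE 0.69, adjusted p = 0.412), Ifit1, with 1.65 (SE 0.79), and Dhx58, with 1.04 (SE 0.46). Of 37 members 31 lay above 0, against 54.8% of genes. The median over members was 0.60, against 0.06 for all genes, and 0.31 without epiWAT Gipr-/- array 1. For double-knockout minus Gipr-/-, 1 member passed, against 104 genes (0.717%; 0.372% lower): the effect on Lgals3bp was lower in ingWAT by 3.19, as a difference of -3.19 (SE 0.72, adjusted p = 0.0431). In epiWAT the corresponding Lgals3bp values were 11.60, 12.95, 13.44 and 12.75 on the Gipr-/- arrays and 12.16, 14.16, 13.35 and 13.85 with double-knockout marrow. Its call was lost when any of 16 of the 22 arrays was left out, with adjusted p up to 0.132. Of the members, 1 was lower and 1, Samd9l at 0.92 (SE 0.42), was higher at an unadjusted p under 0.05, against 13.8% of genes (7.67% lower, 6.12% higher). Below 0 lay 28 of 37 members, against 52.6% of genes, with a median of -0.42, against -0.04. The differences next in size were -1.52 (SE 0.83) for Rsad2 and -1.15 (SE 0.85) for Gbp2, neither called.

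The genes around the members were read from a list of 127 pathway genes, of which 109 had a feature. Of 18 interferon ligand genes measured, only 6 passed the low-value filter in epiWAT and 8 in ingWAT, and 0 of those passed the adjusted threshold between kinds of marrow. Ifng, the gene of interferon gamma, had means of 4.74 ± 0.79 (SD, n = 4), 5.02 ± 0.20 (SD, n = 3) and 5.21 ± 0.41 (SD, n = 3) in ingWAT. In epiWAT 0 of 94 pathway genes tested passed in limma in any of the 3 comparisons, with 5, 10 and 2 at an unadjusted p under 0.05. These are 5.32%, 10.6% and 2.13% of the list, against 7.25%, 10.7% and 3.06% of all genes.

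Among the receptors in ingWAT, Ifngr1 stood highest on the Gipr-/- arrays. Ifngr1, the ligand-binding chain of the interferon gamma receptor, had means of 14.33 ± 0.15 (SD, n = 4) for WT, 15.48 ± 0.44 (SD, n = 3) for Gipr-/- marrow and 14.23 ± 0.26 (SD, n = 3) with double-knockout marrow. It differed by 1.15 between Gipr-/- and WT (SE 0.23, adjusted p = 0.0566 in limma) and fell by 1.25 from Gipr-/- to double-knockout marrow (SE 0.25, adjusted p = 0.0223). Ifnar2 differed by 0.93 (SE 0.27, adjusted p = 0.139) and -0.79 (SE 0.29, adjusted p = 0.154), and Ifnar1 by 0.29 (SE 0.25) and -0.29 (SE 0.27). Both comparisons share the Gipr-/- arrays.

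Of 96 pathway genes tested for double-knockout minus Gipr-/- marrow in ingWAT, 3 fell and 1 rose, 4.17% of the list against 3.48% of all genes. Beside Ifngr1, Tlr8, an endosomal RNA receptor of myeloid cells, fell by 1.88 (SE 0.35, adjusted p = 0.0174 in limma), and Ifi207, a member of the DNA-binding p200 family, fell by 1.44 (SE 0.30, adjusted p = 0.0253). Parp11, an ADP-ribosyl transferase, rose by 1.08 (SE 0.27, adjusted p = 0.0498). With double-knockout arrays 1 and 3 left out none of the 4 passed, nor did any in the fit of all 22 arrays (adjusted p from 0.0601 to 0.0810). Without those arrays the differences were -0.95 for Ifngr1, -1.46 for Tlr8, -0.95 for Ifi207 and 0.85 for Parp11. Each also lost its call on leaving out some single arrays: Parp11 without any ingWAT array other than double-knockout array 2, Ifngr1 without Gipr-/- array 2 or 3 or double-knockout array 1 or 3, and Tlr8 and Ifi207 without Gipr-/- array 1 or 2 or double-knockout array 1 or 3.

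The list also held a set of interferon-gamma GTPases, immunoproteasome subunits, antigen presentation genes and chemokine genes. Of 23 tested, 20 lay higher with double-knockout than with Gipr-/- marrow in ingWAT, with a median difference of 0.64, and 10 (43.5%) stood at an unadjusted p under 0.05, all higher, against 7.07% of all genes, but 0 passed the adjusted threshold in limma. The mean over all 24 genes of this set that were measured was 11.37, 10.44 and 11.49 on double-knockout arrays 1, 2 and 3. On the other ingWAT arrays it ran from 10.02 to 10.60. Arrays 1 and 3, the arrays with the highest lymph node markers, were the high ones, and array 2 lay within the range of the others. Irf1, a factor that acts on these genes, showed the same arrays apart: it ran from 9.76 on array 2 to 11.74, and its difference was 1.66 (SE 0.52, adjusted p = 0.100 in limma). The part of lymph node tissue in these values was not tested.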

How the data were processed

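The deposited table holds 1 value per feature and array on a log scale, here taken as log2; per the submitters' processing notes Partek 6.6 was used, and its role, the normalization and the log base are not given in the sources used here. Of 21793 features, 19341 carried 1 gene symbol, 0 carried several and 2452 were unnamed here; 4 second features of a gene were left out. Members and lists were chosen with earlier results of these data known. Each depot was fitted with limma 3.58.1 in R 4.3.3 (3 marrow groups, eBayes with a trend, the 25% of genes with the lowest mean left out), and depot contrasts came from a fit of all 22 arrays. Tests were two-sided with Benjamini-Hochberg adjustment over all genes tested and a threshold of 0.05, and were tested on simulated data with 200 changed genes. Named members were Irf7, those past the threshold, those at an unadjusted p under 0.05 and, per comparison, the 3 with the smallest p or largest difference; pathway genes followed the same p rule, with Irf1 and the receptors Ifnar1, Ifnar2 and Ifngr1 in any case. Alternatives were other filters, scalings, weights and fits, and arrays left out. Marker lists were summed on the linear scale. Ifng was named after its values were seen.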

Additional observations from a re-analysis of the deposited data

Results flagged for a closer look

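Each of the 37 members and their mean was checked in every group of 4 arrays, which made 152 checks. They reuse the same arrays, and the members varied together in epiWAT, so the checks are not independent. In 11 of the 152 (7.24%) 1 array lay far from the other 3 by Dixon's criterion. Chance meets it in about 1 single check in 20, and the share was not tested against that rate. Gipr-/- array 1 of epiWAT, the array with the highest germ cell markers, accounted for 5 of the 11. It was low for Stat2 at 8.70 against 9.85 to 10.03, for the ubiquitin ligase gene Trim25 at 8.51 against 9.87 to 10.06, and for Parp9, an ADP-ribosylation partner of Dtx3l, at 7.09 against 8.97 to 9.22. It was also low for Gbp7 at 9.94 against 11.46 to 11.71, and for the mean over the 37 members at 7.67 against 8.82 to 8.97.

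The remaining 6 were spread over other arrays. In epiWAT, Trim25 was low on WT array 2 at 9.38 against 9.95 to 10.05. Isg15, the ubiquitin-like modifier itself, was high on double-knockout array 4 at 6.00 against 4.33 to 4.58, while Oas3 at 3.64 on double-knockout array 2 was apart only because the others lay between 3.58 and 3.59. In ingWAT WT marrow, array 1 was high for Ifit3b at 12.05 against 11.44 to 11.49 and low for Oas2 at 7.53 against 8.18 to 8.27, and array 3 was low for Gbp3 at 9.89 against 10.40 to 10.48.

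The effect of double-knockout against Gipr-/- marrow on Lgals3bp differed between depots, by -3.19 for ingWAT minus epiWAT (adjusted p = 0.0431 in limma). This call was lost in limma with no filter on low values (adjusted p = 0.0548) and with median centring (0.0604). It was also lost on leaving out most single arrays, with adjusted p up to 0.132.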

How the results depend on the processing

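Over the genes named, 1601 recomputed values kept direction and side of the threshold, 108 lost a call, 23 gained one and 12 changed sign, all 12 for Irf7. Members past the threshold for ingWAT Gipr-/- minus WT were 1 with the stricter 50% filter, 1 with median centring, 3 with array weights, and 0 to 3 without 1 array. For ingWAT double knockout minus Gipr-/- they were 1 with all 22 arrays in one fit, 0 without double-knockout arrays 1 and 3, 5 without the muscle-high arrays (median -0.30), and 0 to 4 without 1 array (median -0.30 to 0.14). For ingWAT double knockout minus WT they were 1 with weights, 1 with all 22 arrays, and 0 to 1 without 1 array (median -0.11 to 0.33). The depot difference of the double knockout minus Gipr-/- effect fell to 0 members with no filter, with centring and without ingWAT double-knockout arrays 1 and 3, and ran from 0 to 1 without 1 array. Array weights gave 1 member in each depot contrast and for the depot difference of the Gipr-/- effect. With Gipr-/- or double-knockout marrow the depot contrast had 0 to 1 without 1 array, and with double-knockout marrow 1 under both added settings for epiWAT.

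Irf7 for epiWAT double knockout minus WT was 0.38 without Gipr-/- array 1 and double-knockout array 1, and -0.54 to 0.52 without 1 array, positive without WT array 3 (0.058) or 4 (0.52) or double-knockout array 1 (0.38) or 3 (0.074). Its ingWAT double knockout minus Gipr-/- difference ran from -0.093 to 0.51. Its depot difference with WT marrow was -0.062 with weights, -0.21 without epiWAT WT array 2, Gipr-/- array 1 and double-knockout array 1, and -0.21 to 0.85 without 1 array. With double-knockout marrow it ran from -0.68 to 0.0011, the latter without ingWAT double-knockout array 1, and its difference in the Gipr-/- effect from -0.049 to 1.01. The settings that left out several arrays were chosen after seeing the data, and the cause of these changes was not tested.

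Counts over all genes moved more. For ingWAT Gipr-/- minus WT, 34 became 401 with weights, 1 without the trend and 0 to 274 without 1 array. For double knockout minus Gipr-/-, 505 became 1797 with weights and 49 to 1382 without 1 array; for double knockout minus WT, 0 became 555 with weights and 0 to 620. No paired analysis was possible because the labels carry no replicate numbers that groups share. Groups of 3 or 4 arrays and values near the low-value limit restrict what can be detected for Isg15, Oas3 and Oasl1.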

Other observations

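Of 95 pathway genes outside the members tested between depots, 1, 1 and 3 passed the threshold in limma with WT, Gipr-/- and double-knockout marrow. These are 1.05%, 1.05% and 3.16% of the list, against 1.97%, 0.614% and 3.92% of all genes. With WT marrow, Tapbp, a chaperone that loads peptides on class I molecules, was lower in ingWAT: 12.12 ± 0.34 (SD, n = 4) against 13.44 ± 0.29 (SD, n = 4), a difference of -1.33 (SE 0.23, adjusted p = 0.00776 in limma). With Gipr-/- marrow, Ifngr1 was higher in ingWAT by 1.62 (SE 0.35, adjusted p = 0.0448), a call lost on leaving out most single arrays, with adjusted p up to 0.214. With double-knockout marrow, Epsti1, an interferon-induced gene, was higher in ingWAT by 2.76 (SE 0.63, adjusted p = 0.0207 in limma). The GTPase gene Tgtp2 was higher by 1.98 (SE 0.50, adjusted p = 0.0311) and the peptide transporter gene Tap2 by 1.71 (SE 0.42, adjusted p = 0.0280). Without ingWAT double-knockout arrays 1 and 3, the arrays with the highest lymph node markers, these 3 differences were 0.39, 0.25 and 0.72.

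Slfn2, an interferon-induced gene that keeps lymphocytes and monocytes quiescent, had the smallest p of the pathway genes in epiWAT. It read 8.98 ± 0.31 (SD, n = 4) with WT, 10.35 ± 0.46 (SD, n = 4) with Gipr-/- and 8.87 ± 0.44 (SD, n = 4) with double-knockout marrow. The Gipr-/- arrays did not overlap with either other group. Of all genes tested, 5.04% were free of overlap between Gipr-/- and WT marrow and 6.05% between double-knockout and Gipr-/- marrow. The differences, 1.37 (SE 0.29, adjusted p = 0.322 in limma) and -1.48 (SE 0.29, adjusted p = 0.192), did not pass the threshold and share the Gipr-/- arrays.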
